A study of Mus musculus with 8 samples.

Results

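Collagens are the proteins that make up most of the fibrous matrix around adipocytes. Their genes were followed in inguinal white adipose tissue (ING WAT), the subcutaneous fat depot of the groin, of C57BL/6j mice around weaning and in young adulthood. The members are the genes of the deposited expression table whose symbol consists of Col, a number, the letter a and a number. This rule found 44 genes among the 38384 genes of the table, with 188 transcripts of 91969. By the supramolecular structure that their proteins form, 11 belong to the fibrillar class, 6 to the basement membrane class, 9 to the FACIT class (fibril-associated collagens with interrupted helices) and 6 to the beaded filament class. The remaining 12 are 3 hexagonal network collagens, 1 anchoring fibril collagen, 2 multiplexins, 4 transmembrane collagens and 2 that fit none of these classes. Poly(A)+ RNA had been sequenced from 4 mice at postnatal day (PN) 21 and 4 mice at PN98, with no genetic change in any animal. The PN21 mice are m1, m49, m138 and m145 and the PN98 mice are m35, m106, m114 and m125, and values are given in this order. The study design weaned the pups onto a semi-synthetic diet and fed mice either a maintenance diet or a western style diet after that, and the labels do not give the diet, sex or litter of the sequenced mice. Age can therefore not be told apart from diet or weaning state in these samples.

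A collagen molecule consists of 3 polypeptides, the alpha chains, wound around each other, and each gene encodes 1 chain. The helical part repeats a triplet with glycine in a fixed place, the only residue small enough for the centre of the helix. Type I (Col1a1 and Col1a2) and type III (Col3a1) collagens form the banded fibrils of connective tissue, and type V collagen helps to start and size them. Type IV collagen (Col4a1 and Col4a2) forms the sheet-like network of basement membranes, which in fat surrounds each adipocyte and each capillary, and type VI collagen forms beaded filaments between the basement membrane and the fibrils. In adipose tissue fibrillar collagens come mainly from stromal fibroblasts and progenitors, whereas adipocytes and endothelial cells also make type IV collagen.

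The classes differ in the sequence that encodes the helix. The following coding exons illustrate this on mm10 and were picked to lie inside a repeat or to span a break in it. The sequences are those of the GENCODE vM21 transcripts, printed 5′ to 3′ on the coding strand with every in-frame glycine codon in capitals. The first 3 are the first exons of 54 bases inside the longest glycine repeat of the genes that carried most collagen RNA, and the last is a stretch of a type IV chain in which the repeat breaks off.
Col1a1, coding exon 8, chr11:94939904-94939957 (+): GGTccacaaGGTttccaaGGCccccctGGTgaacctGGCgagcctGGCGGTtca
Col1a2, coding exon 8, chr6:4515481-4515534 (+): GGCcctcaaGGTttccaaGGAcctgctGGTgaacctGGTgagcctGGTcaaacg
Col3a1, coding exon 6, chr1:45325360-45325413 (+): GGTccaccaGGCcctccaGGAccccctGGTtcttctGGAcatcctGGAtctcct
Col4a1, coding exon 21, chr8:11235141-11235200 (-): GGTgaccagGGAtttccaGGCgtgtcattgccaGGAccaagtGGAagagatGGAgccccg
In the 3 fibrillar exons a glycine codon opened each triplet, and Col1a1 and Col1a2 shared 42 of 54 bases. In Col4a1, 2 codons without glycine interrupted the repeat, after which it resumed.

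Counted over the longest coding sequence of each gene, the longest unbroken run of glycine triplets lay between 216 and 344 triplets in the 11 fibrillar genes (338 in both Col1a1 and Col1a2, and 344 in Col3a1). In the 6 basement membrane genes it lay between 39 and 66 triplets (40 in Col4a1), and their repeats were split into 22 to 27 blocks of at least 5 triplets, against 2 or 3 blocks in the fibrillar genes. Exons of exactly 54 bases made up 21 of the 49 inner coding exons of Col1a1, 24 of 50 in Col1a2 and 24 of 49 in Col3a1. They made up 2 of 50 in Col4a1 and 0.434% of the 155564 inner coding exons of 22456 other genes. Such exons were not limited to fibrillar genes. Among the FACIT genes they made up 14 of 30 in Col9a2 and 28 of 61 in Col22a1, but 4 of 63 in Col12a1. The fibrillar genes are thus alike in exon structure, but not in the size of their expression change, as described next.

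Expression was compared as FPKM (fragments per kilobase of transcript, scaled to the mapped fragments of the library) summed over the transcripts of a gene. Read counts are not among the values used here, and sequencing depth is unknown. The mitochondrial tRNA gene mt-Ts1 was listed at 0 in m106 and m125, against 398384 to 1086570 FPKM in the other mice, so results are also given without these 2 mice. Adipocyte markers were present in every mouse, with a summed level of 12183 to 22399 FPKM at PN21 and 33164 to 43275 FPKM at PN98, and Adipoq, Cidec and Lipe rose. The 7 fibroblast and progenitor markers (Pdgfra, Dpt, Cd34, Ly6a, Pi16, Dpp4 and Mfap5) summed to 464 to 879 FPKM at PN21 and 412 to 1429 FPKM at PN98, and none passed the test. Dpt was the highest of them in every mouse. Dpt and Pi16 had estimates above 0 and the others below 0, with a median log2 fold change of −0.29. In Cd34 every PN98 mouse lay below every PN21 mouse. The 5 skeletal muscle markers in the table summed to 31.0 to 650.1 FPKM at PN21 and 420 to 2943 FPKM at PN98, and Actn3 rose (limma adjusted p = 0.0313). Epithelial markers summed to 1.87 to 43.6 FPKM at PN21 and 0.290 to 1.11 FPKM at PN98, and Epcam fell (limma adjusted p = 0.0405). With a PN98 mean of 0.304 FPKM, Epcam entered the test only through PN21. Of the 6 cartilage and tendon markers 5, including Acan and Matn3, stayed below 1 FPKM in every mouse. Mural cell markers summed to 129 to 250.5 and 59.0 to 381 FPKM, endothelial markers to 165 to 229 and 73.6 to 255 FPKM, lymphocyte markers to 122 to 311 and 3.65 to 302 FPKM, and macrophage markers to 64.9 to 102 and 33.8 to 121 FPKM at PN21 and PN98. All 8 mice expressed the 4 Y-linked genes of the marker list (at least 2.41 FPKM), with Xist at most at 0.832 FPKM. The part of these other cell types in the collagen changes was not tested, and fewer cells of a type cannot be told apart from less RNA per cell in whole tissue.

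Of the 44 collagens, 26 had a mean of at least 1 FPKM and were tested with limma on log2(FPKM + 1). Of these, 6 fell from PN21 to PN98 at a Benjamini-Hochberg adjusted p under 0.05 over all genes, and 0 rose. Over all 15947 genes tested, 3.09% were called lower and 2.42% higher. At an unadjusted p under 0.05, 13 collagens were lower, against 19.2% of all genes. The 6 genes were Col1a1, Col1a2, Col3a1 and Col27a1 of the fibrillar class, Col4a5 of the basement membrane class and the unclassified Col26a1. The estimate was below 0 in 22 of the 26 genes, against 67.0% of all genes, and the median log2 fold change was −0.92, against −0.21 over all genes. With the mice scaled by median of ratios, 21 estimates were below 0 and the medians were −0.71 and −0.02. Every PN98 mouse lay below every PN21 mouse in 13 of the 26 collagens and in 10.1% of all genes, and above it in 0 collagens and in 6.10% of all genes. The filter uses the mean of all 8 mice, so Col26a1, with a PN98 mean of 0.229 FPKM, entered only through PN21, and the counts over tested members are a description. Without m106 and m125, an alternative chosen after seeing the data, no collagen was called by limma. In this fit 10 of 28 collagens were lower at an unadjusted p under 0.05, and the adjusted p of the 6 genes lay between 0.0517 and 0.132. The share of all genes at this unadjusted p is not given for this fit, so the count does not set collagens apart. It leaves only m35 and m114 at PN98, and it called a smaller share of all genes lower than the 3.09% of the main fit. The loss of calls is therefore not specific to collagens. The median log2 fold change in this fit was −0.44 over the 28 collagens tested, against −0.10 over all genes.

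**Figure D1:**
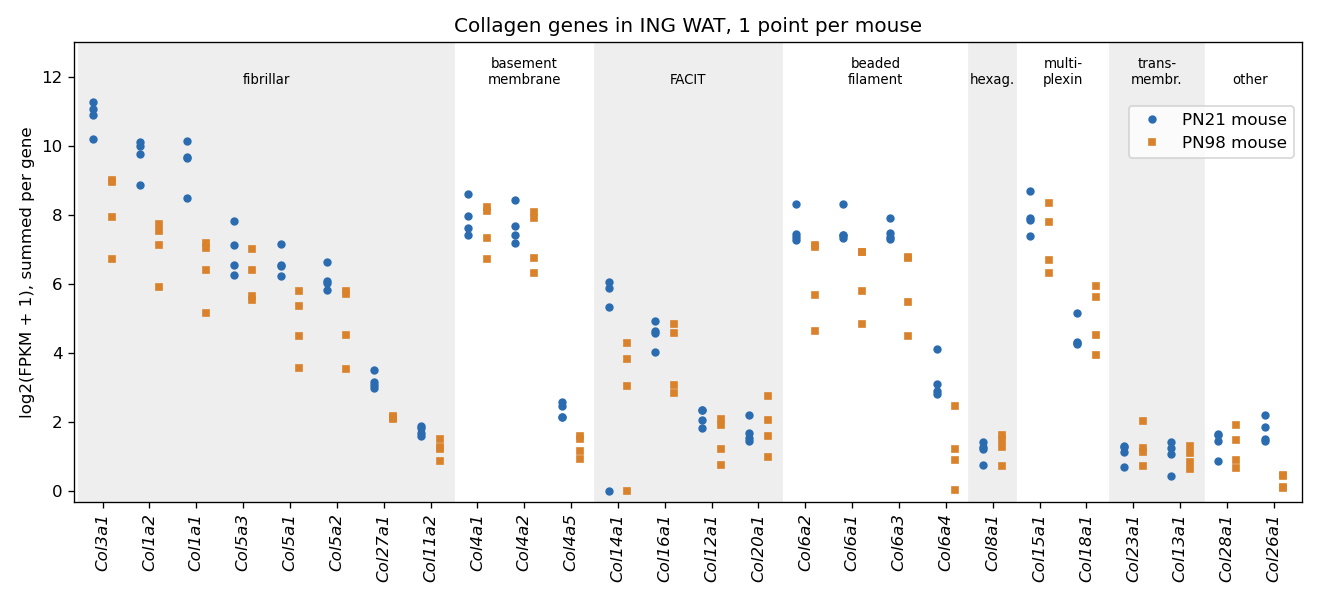
Level of the 26 tested collagens as log2(FPKM + 1) (y axis) by gene and class (x axis), with 1 blue circle per PN21 mouse and 1 orange square per PN98 mouse. The groups separate in Col3a1, Col1a2 and Col1a1 and overlap in Col4a1 and Col4a2, and Col14a1 has 1 mouse of each age at 0.

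The fibrillar class held the genes with the highest levels, Col3a1, Col1a2 and Col1a1, and all 3 fell. Col3a1, the single chain of type III collagen, was at 2487, 1179.6, 1888 and 2130.5 FPKM at PN21 and at 521, 244, 495 and 104 FPKM at PN98. The highest PN98 mouse had less than the lowest PN21 mouse, and the log2 fold change was −2.70 ± 0.51 (SE, n = 4 per age, limma adjusted p = 0.0248). Col1a1, the chain that is present in 2 copies in a type I molecule, was at 1125, 356, 817 and 811 FPKM at PN21 and at 146, 84.4, 132 and 35.1 FPKM at PN98. The ages did not overlap, and the PN98 mean was 12.8% of the PN21 mean. Its log2 fold change was −3.03 ± 0.51 (SE, limma adjusted p = 0.0172). Col1a2, the partner chain of type I, was at 1113, 471, 862 and 1013 FPKM at PN21 and at 213, 139, 184 and 59.5 FPKM at PN98, and the log2 fold change was −2.61 ± 0.44 (SE, limma adjusted p = 0.0169). In all 3 genes m49 was the lowest mouse of PN21 and m125 the lowest of PN98. The limma calls of these 3 genes were lost when m1, m106, m138 or m145 was left out, at adjusted p values of 0.0509 to 0.0818, while their log2 fold changes in these fits lay between −3.01 and −2.46. Without both m106 and m125 they were −2.36 for Col1a1, −2.05 for Col1a2 and −1.87 for Col3a1, with adjusted p values of 0.068, 0.0584 and 0.0517.

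The type V chains had smaller differences. Col5a1, whose protein starts the assembly of type I fibrils, was at 142, 74.4, 93.8 and 92.0 FPKM at PN21 and at 40.4, 21.4, 55.1 and 10.8 FPKM at PN98. The groups did not overlap, but the log2 fold change of −1.82 ± 0.47 (SE) missed the threshold (limma adjusted p = 0.0615). Col5a2 was at 98.6, 56.3, 67.7 and 64.7 FPKM at PN21 and at 51.5, 22.1, 54.9 and 10.7 FPKM at PN98. Its highest PN98 value of 54.9 lay just under the lowest PN21 value of 56.3 FPKM, with a log2 fold change of −1.26 ± 0.49 (SE, limma adjusted p = 0.152). The minor fibrillar chain Col5a3 had overlapping ages, between 75.7 and 226 FPKM at PN21 and between 45.2 and 129.6 FPKM at PN98. Col11a2, a type XI chain best known from cartilage, lay between 2.04 and 2.74 FPKM at PN21 and between 0.822 and 1.83 FPKM at PN98 (limma adjusted p = 0.101).

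Col27a1, a fibrillar collagen of low abundance with a shorter helix, fell as well. It was at 10.45, 6.92, 7.42 and 7.91 FPKM at PN21 and at 3.49, 3.31, 3.53 and 3.25 FPKM at PN98. The PN98 mice were nearly alike, also m125, which was far below the others in type I and III collagen. The log2 fold change was −1.05 ± 0.16 (SE, limma adjusted p = 0.0117), and the call was lost without m106 (adjusted p = 0.0507) and with scaling to nuclear genes (adjusted p = 0.0536). In all, 4 of the 8 fibrillar genes tested were called lower and 8 of 8 estimates were below 0, with a median of −1.54. Over all genes, 3.09% were called lower and 67.0% of the estimates were below 0, with a median of −0.21.

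**Figure D2:**
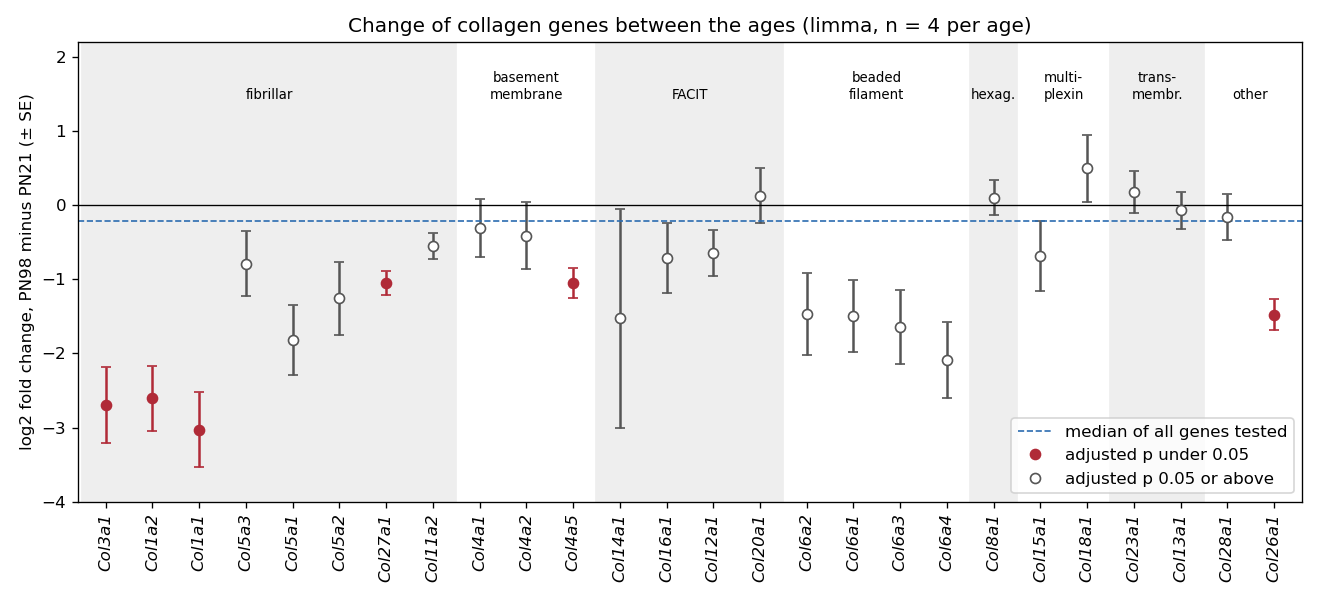
Log2 fold change of each tested collagen between the ages (y axis, PN98 minus PN21, bars ± SE from limma, n = 4 per age) by gene and class (x axis). Filled red points mark the 6 genes with an adjusted p under 0.05, all below 0, and the dashed line is the median of −0.21 over all genes tested.

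The main basement membrane chains did not differ beyond the spread between mice. Col4a1 was at 393, 196, 248 and 171 FPKM at PN21 and at 278, 162, 302 and 104 FPKM at PN98. Its partner Col4a2 was at 347, 171, 203 and 145.1 FPKM at PN21 and at 242, 108, 271 and 78.6 FPKM at PN98. The ages overlapped in both genes, with m35 and m114 above 3 of the PN21 mice in Col4a1. The log2 fold changes were −0.30 ± 0.39 (SE, limma adjusted p = 0.628) for Col4a1 and −0.41 ± 0.45 (SE, limma adjusted p = 0.56) for Col4a2, and without m106 and m125 they turned to 0.27 and 0.32. The remaining chain tested, Col4a5, which forms a separate type IV network with Col4a3 and Col4a4 or with Col4a6, was at 5.06, 3.43, 4.58 and 3.47 FPKM at PN21. At PN98 it was at 2.04, 1.24, 1.83 and 0.899 FPKM, below every PN21 mouse. It fell by 1.05 ± 0.20 on the log2 scale (SE, limma adjusted p = 0.0255), but the call was lost in 9 of 16 alternatives, with adjusted p values up to 0.132. It was lost without m1, m49, m106, m114, m138 or m145 (adjusted p = 0.0559 to 0.091).

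All 4 tested chains of the beaded filament class had their PN98 mice below their PN21 mice, and none passed the threshold. Of all genes tested, 10.1% were separated in this way. Col6a1 was at 322, 170.3, 160.3 and 170.4 FPKM at PN21 and at 122, 54.5, 121 and 27.95 FPKM at PN98 (log2 fold change −1.498 ± 0.49 SE, limma adjusted p = 0.107). Col6a2 was at 317, 155, 164 and 174 FPKM at PN21 and at 139, 50.7, 134 and 24.2 FPKM at PN98 (log2 fold change −1.47 ± 0.56 SE, limma adjusted p = 0.145). Col6a3, the large chain whose cleaved end is released as endotrophin, was at 242, 179, 159 and 164.5 FPKM at PN21 and at 110.2, 43.6, 107 and 21.6 FPKM at PN98 (log2 fold change −1.64 ± 0.50 SE, limma adjusted p = 0.0925). These 3 chains make up the common type VI molecule, and within a mouse the ratios of Col6a1 to Col6a2 and of Col6a3 to Col6a1 lay between 0.752 and 1.16. Col6a4, an alternative chain that can take the place of Col6a3, was far lower, at 6.05, 6.42, 16.4 and 7.69 FPKM at PN21 and at 4.49, 1.34, 0.865 and 0.0195 FPKM at PN98. Its log2 fold change of −2.08 ± 0.51 (SE) gave a limma adjusted p of 0.0538, which became 0.0434 with median of ratios scaling. The median over the class was −1.57, against −0.21 over all genes.

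The FACIT collagens, which sit on the surface of fibrils, gave no call. Col14a1 was listed at 0 in m1 and m114 in every one of its transcripts, and at 39.5, 57.7 and 65.7 FPKM in the other PN21 mice and 18.5, 13.4 and 7.28 FPKM in the other PN98 mice. Among the mice with a value the ages did not overlap, and a value of 0 can be a failed estimate of the upstream program. The fit that keeps the zeros gave a log2 fold change of −1.52 ± 1.48 (SE, limma adjusted p = 0.511). Col16a1 was at 23.8, 15.4, 22.8 and 29.7 FPKM at PN21 and at 22.9, 7.50, 27.5 and 6.22 FPKM at PN98. Its PN98 mice formed 2 pairs, with m35 and m114 inside the PN21 range and m106 and m125 below it, and the log2 fold change was −0.71 ± 0.47 (SE, limma adjusted p = 0.347). Col12a1, the FACIT of tendon and other dense tissue, was at 4.06, 3.22, 4.11 and 2.56 FPKM at PN21 and at 2.80, 1.35, 3.28 and 0.692 FPKM at PN98 (limma adjusted p = 0.208). Col20a1 was the one tested FACIT gene with an estimate above 0. It was at 1.90, 1.73, 2.199 and 3.65 FPKM at PN21 and at 2.03, 3.20, 0.985 and 5.74 FPKM at PN98, with both the lowest and the highest mouse at PN98 (log2 fold change 0.13 ± 0.37 SE, limma adjusted p = 0.833).

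The multiplexins Col15a1 and Col18a1, basement membrane proteoglycans whose ends are cleaved off as restin and endostatin, had estimates in opposite directions. Col15a1 was at 418, 241, 232 and 168 FPKM at PN21 and at 220, 104, 328 and 78.2 FPKM at PN98 (log2 fold change −0.68 ± 0.48 SE, limma adjusted p = 0.37). Col18a1 was at 34.9, 18.2, 18.8 and 18.8 FPKM at PN21 and at 48.3, 21.9, 60.5 and 14.5 FPKM at PN98 (log2 fold change 0.50 ± 0.45 SE, limma adjusted p = 0.481). In both genes m35 and m114 were above m106 and m125, and the ages overlapped.

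Col26a1, a short extracellular protein with little helix that belongs to none of the other classes, had the lowest adjusted p of the collagens. With a PN98 mean of 0.229 FPKM it entered the test only through PN21, which limits what this p can show. It was at 1.85, 3.66, 2.63 and 1.76 FPKM at PN21 and at 0.0750, 0.0990, 0.381 and 0.360 FPKM at PN98. The highest PN98 mouse was below the lowest PN21 mouse by more than 1 FPKM, and the PN98 mean was 9.24% of the PN21 mean. The log2 fold change was −1.48 ± 0.21 (SE, limma adjusted p = 0.00972) on the log2(FPKM + 1) scale, which understates the change of a gene this low, and −3.06 with a pseudocount of 0.1 FPKM. Its call held in 14 of 15 alternatives and was lost without both m106 and m125 (adjusted p = 0.0642). With leading transcripts only it was not tested, because its leading transcript had a mean of 0.662 FPKM. The remaining low genes gave small differences, namely 0.11 ± 0.24 for the network collagen Col8a1, 0.18 ± 0.28 for the transmembrane Col23a1 and −0.15 ± 0.31 for Col28a1 (SE, limma adjusted p of 0.698 and above). The transmembrane Col13a1 differed by −0.07 ± 0.25, which turned to 0.05 with either scaling.

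The 18 collagens that did not reach a mean of 1 FPKM were left out of the test. The highest value among them was 2.55 FPKM, in Col6a6. This type VI chain was at 2.55, 1.26, 1.91 and 1.38 FPKM at PN21 and at 0.265, 0.127, 0.209 and 0.0988 FPKM at PN98, so that the ages did not overlap. It was called lower by limma with no filter and without m35, m106, m114 or m125, and was not called without both m106 and m125. It entered the tests with a filter only through its PN21 values. The others were the fibrillar Col2a1, Col11a1 and Col24a1, the basement membrane Col4a3, Col4a4 and Col4a6, the FACIT members Col9a1, Col9a2, Col9a3, Col19a1 and Col22a1, and Col6a5, Col7a1, Col8a2, Col10a1, Col17a1 and Col25a1. Col2a1 and the type IX genes, the defining collagens of cartilage, reached at most 1.503 FPKM, in Col9a3 of m49.

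The make-up of collagen RNA within a mouse differed between the ages. Summed over the class, fibrillar collagens were at 5205, 2286, 3833 and 4198 FPKM at PN21 and at 1062, 561, 1056 and 274 FPKM at PN98. This was 70.9%, 65.3%, 74.5% and 78.7% of all collagen FPKM at PN21 and 46.5%, 49.2%, 43.6% and 42.2% at PN98. The shares did not overlap. Basement membrane collagens held 10.2%, 10.6%, 8.88% and 6.00% at PN21 and 22.9%, 23.8%, 23.7% and 28.4% at PN98, also without overlap. Their summed FPKM was not higher at PN98, with a mean of 474 at PN21 and 388 at PN98 and overlapping ages. Beaded filament collagens held 9.71% to 14.6% at PN21 and 11.4% to 16.4% at PN98, and the ages overlapped. The multiplexins held 3.51% to 7.42% at PN21 and 10.996% to 16.04% at PN98, while their summed FPKM had means of 287 and 219 and overlapped. Col1a1, Col1a2 and Col3a1 together gave 57.3% to 74.1% of collagen FPKM at PN21 and 30.6% to 40.997% at PN98. A share does not depend on how a mouse is scaled, and since a class sum is a score over the members it was not tested. The mouse m125 had the lowest collagen total (649 FPKM, against 1141 to 2423 FPKM in the other PN98 mice and 3499 to 7339 FPKM at PN21) and the highest share of basement membrane collagens.

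**Figure D3:**
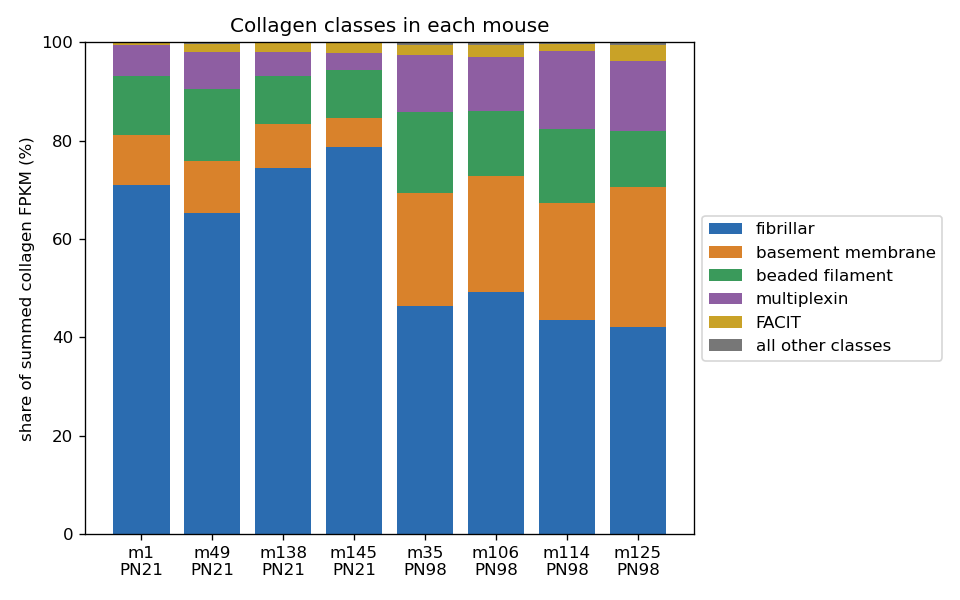
Share of each collagen class in the summed collagen FPKM of a mouse (y axis, percent) for the 4 PN21 and 4 PN98 mice (x axis), stacked to 100%. Fibrillar collagens take 65.3% to 78.7% at PN21 and 42.2% to 49.2% at PN98, and basement membrane collagens 6.00% to 10.6% and 22.9% to 28.4%.

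Ratios of 2 chains within a mouse were tested by exact permutation (two-sided) of the ages, where the 70 possible splits allow no p below 0.0286. The ratio of Col14a1 to Col12a1 was left out because of the zeros, which left 8 ratios. The 2 chains of type I collagen, which enter the molecule at a fixed ratio, had a Col1a1 to Col1a2 ratio of 1.01, 0.756, 0.948 and 0.801 at PN21 and of 0.687, 0.607, 0.720 and 0.589 at PN98. Every PN98 mouse had the lower ratio (difference in mean log2 ratio −0.43, exact p = 0.0286, adjusted 0.0572). Col5a1 to Col5a2 was 1.44, 1.32, 1.39 and 1.42 at PN21 and 0.785, 0.970, 1.004 and 1.01 at PN98. Col5a1 exceeded Col5a2 in all PN21 mice, and every PN98 mouse had a lower ratio (difference −0.57, exact p = 0.0286, adjusted 0.0572). Col15a1 to Col18a1 was 11.95, 13.3, 12.3 and 8.94 at PN21 and 4.54, 4.74, 5.42 and 5.39 at PN98, again without overlap (difference −1.20, exact p = 0.0286, adjusted 0.0572).

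Col4a5 to Col4a1 was 0.0129, 0.0175, 0.0185 and 0.0203 at PN21 and 0.00734, 0.00767, 0.00607 and 0.00865 at PN98 (difference −1.21, exact p = 0.0286, adjusted 0.0572). These 4 ratios reached the smallest p that the test allows, and none passed the adjustment over the 8 ratios. With that smallest p, no ratio could pass unless more than 4 of the 8 reached it. The adjusted values therefore do not grade single ratios. The type IV pair Col4a1 to Col4a2 was between 1.13 and 1.22 at PN21 and between 1.11 and 1.5004 at PN98 (exact p = 0.371). The type VI pair Col6a1 to Col6a2 was between 0.978 and 1.10 at PN21 and between 0.880 and 1.16 at PN98 (exact p = 0.83). Col3a1 to Col1a1 (2.21 to 3.31 at PN21, 2.90 to 3.75 at PN98, exact p = 0.114) and Col6a3 to Col6a1 (0.752 to 1.05 and 0.772 to 0.904, exact p = 0.229) overlapped as well. When m1 or m49 was left out, 5 ratios passed the adjusted threshold, which takes at least 5 ratios at the smallest p. As a description of the shift between classes, Col4a1 stood to Col1a1 as 0.350, 0.552, 0.304 and 0.211 at PN21 and as 1.90, 1.92, 2.28 and 2.96 at PN98. Col4a2 stood to Col1a2 as 0.312, 0.363, 0.236 and 0.143 at PN21 and as 1.14, 0.775, 1.48 and 1.32 at PN98. Neither pair overlapped between the ages. Per length, the type IV chain exceeded the type I chain in all PN98 mice for the first pair and in all but m106 for the second.

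**Figure D4:**
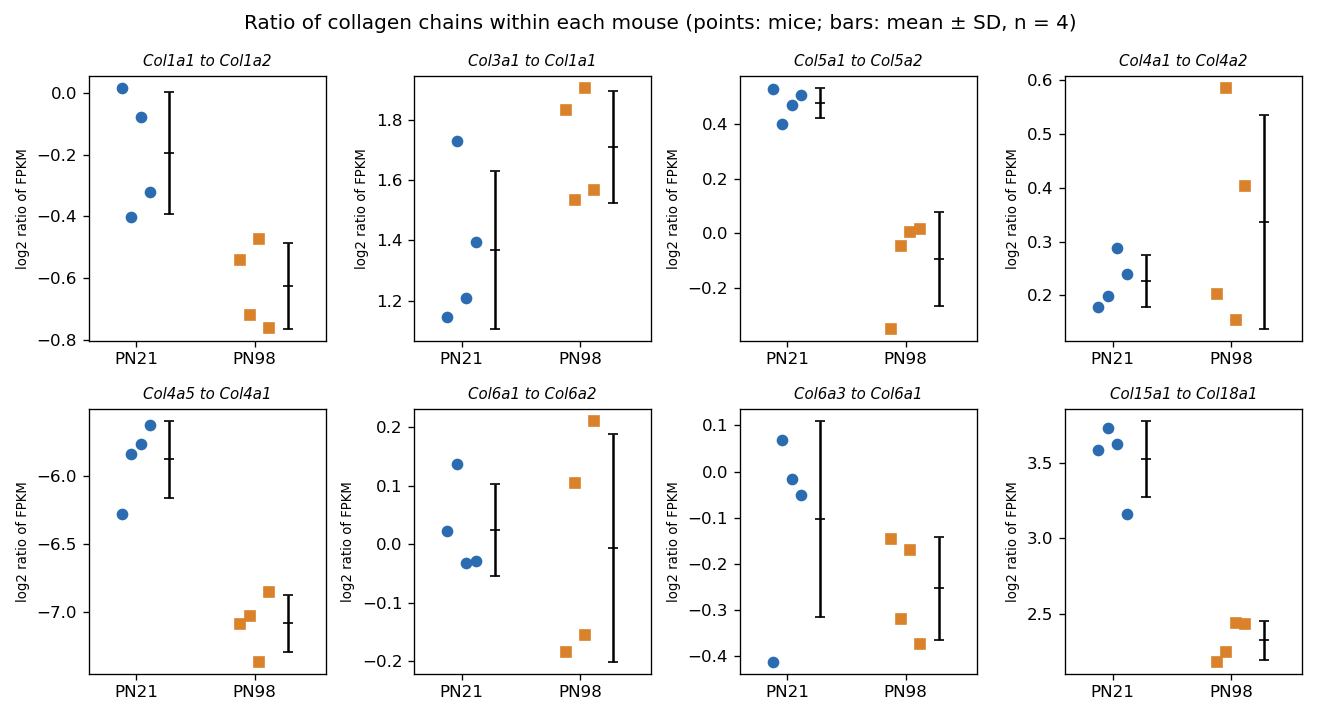
Log2 ratio of the FPKM of 2 collagen chains (y axes, scaled separately) at PN21 and PN98 (x axes), with 1 point per mouse and the mean ± SD beside the points (n = 4). Col1a1 to Col1a2, Col5a1 to Col5a2, Col4a5 to Col4a1 and Col15a1 to Col18a1 do not overlap between the ages, and the other 4 ratios do.

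Some members lie side by side in the genome, and neighbours did not always move alike. Col4a1 and Col4a2 start 21 bases apart on chromosome 8 of mm10 (positions 11312826 on the minus strand and 11312805 on the plus strand) and are read away from each other, and their levels stayed within a ratio of 1.11 to 1.5004 in all mice. Col6a1 and Col6a2 lie 85161 bases apart on chromosome 10 and had nearly equal levels. Col3a1 and Col5a2 lie 24614 bases apart on chromosome 1, and their log2 fold changes were −2.70 and −1.26. Col4a5 and Col4a6 lie 1308 bases apart on the X chromosome, and Col4a6 was between 0.0751 and 0.242 FPKM at PN21 and between 0.0274 and 0.0836 FPKM at PN98.

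Single transcripts were tested with limma on log2(FPKM), for transcripts above 0 in every mouse and with a mean above 2 FPKM at either age. Of 38 collagen transcripts of 17 genes, 33 had an estimate below 0 (63.5% of all transcripts), 3 were called lower and 0 higher, against 0.639% lower and 0.717% higher of 23155 transcripts. The 3 were the main Col1a2 transcript ENSMUST00000031668 (98.9% of the gene's FPKM, −2.62 ± 0.47 SE, limma adjusted p = 0.0497), the minor Col1a2 transcript ENSMUST00000155687 (−1.83 ± 0.30 SE, adjusted p = 0.0436) and the main Col27a1 transcript ENSMUST00000036300 (−1.30 ± 0.23 SE, adjusted p = 0.0489). The main transcripts of Col1a1 (ENSMUST00000001547, −3.04 ± 0.55 SE, adjusted p = 0.0502) and Col3a1 (ENSMUST00000087883, −2.70 ± 0.55 SE, adjusted p = 0.0664) held nearly all of their gene and just missed the threshold. No collagen transcript was called lower without m1, m49, m138, m106, m114 or m125, or at a mean above 2 FPKM at both ages. Without m145, 1 was called lower, the minor Col1a2 transcript. With 1 mouse left out, 0 to 1 collagen transcripts were called higher. The shares of all transcripts called in these fits are not given, so these counts do not set collagens apart.

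Col18a1 was the one gene whose leading transcript and sum differed in direction. ENSMUST00000081654, with 43.1% of the gene's FPKM, was at 18.7, 11.9, 10.9 and 13.2 FPKM at PN21 and at 13.3, 8.04, 18.8 and 6.98 FPKM at PN98 (−0.30 ± 0.36 SE, limma adjusted p = 0.612). ENSMUST00000105409, with 31.3%, was at 9.13, 2.93, 4.19 and 2.61 FPKM at PN21 and at 19.8, 7.17, 22.4 and 5.58 FPKM at PN98 (1.48 ± 0.60 SE, limma adjusted p = 0.217). The leading transcript had an estimate below 0 and the other 3 tested an estimate above 0, but none passed the test.

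Collagen chains are hydroxylated, glycosylated and folded in the endoplasmic reticulum, trimmed outside the cell and then crosslinked. Of 45 genes for these steps and for collagen receptors, 37 were tested, 9 fell and 0 rose, against 3.09% lower and 2.42% higher of all genes. The estimate was below 0 in 26 of the 37, against 67.0% of all genes, and the median log2 fold change was −0.56, against −0.21. Of the 9 genes tested in the group listed under prolyl hydroxylation, P4ha2, P3h3 and P3h4 fell. P4ha2, a catalytic subunit of prolyl 4-hydroxylase, was at 24.2, 20.4, 18.5 and 25.3 FPKM at PN21 and at 10.7, 8.26, 9.07 and 6.36 FPKM at PN98, with every PN98 mouse below the PN21 mice (log2 fold change −1.27 ± 0.19 SE, limma adjusted p = 0.0116). P3h4, a partner of the lysyl hydroxylase complex, was at 24.2, 27.5, 31.1 and 27.1 FPKM at PN21 and at 12.5, 10.3, 8.06 and 10.4 FPKM at PN98, with little spread at either age (−1.34 ± 0.17 SE, limma adjusted p = 0.00626). The prolyl 3-hydroxylase family gene P3h3 fell by 1.14 on the log2 scale (limma adjusted p = 0.049). P4hb, the most abundant gene of this group and also a general protein disulfide isomerase, overlapped between the ages (−0.62 ± 0.26 SE, limma adjusted p = 0.175).

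Among 4 genes for lysyl modification, Plod2, the lysyl hydroxylase of the ends of the chain, fell from 3.62 to 5.86 FPKM at PN21 to 0.616 to 2.36 FPKM at PN98 (−1.14 ± 0.25 SE, limma adjusted p = 0.0379), and Plod3, the most abundant, did not pass the test (0.21 ± 0.30 SE). Of 8 chaperone and secretion genes, the prolyl isomerase Fkbp10 was at 43.0, 22.6, 36.2 and 39.2 FPKM at PN21 and at 13.4, 8.30, 11.2 and 3.91 FPKM at PN98 (−1.90 ± 0.36 SE, limma adjusted p = 0.024). Sparc, a collagen-binding matrix protein and the most abundant of these genes, was between 1538 and 2583 FPKM at PN21 and between 777 and 3050 FPKM at PN98 (−0.30 ± 0.43 SE, limma adjusted p = 0.663). Of 5 processing genes, Pcolce, the enhancer of the proteinase that removes the C-propeptide of fibrillar collagen, was at 392, 237, 269 and 465 FPKM at PN21. At PN98 it was at 113, 56.0, 139 and 35.8 FPKM, below every PN21 mouse (−2.12 ± 0.44 SE, limma adjusted p = 0.0333). Adamts14, which cuts the N-propeptide, was at 3.99, 2.36, 2.33 and 2.24 FPKM at PN21 and at 0.885, 0.567, 0.605 and 0.238 FPKM at PN98 (−1.24 ± 0.20 SE, limma adjusted p = 0.0164). With a PN98 mean of 0.574 FPKM it entered the test only through PN21.

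The lysyl oxidases crosslink the chains, and 2 of the 4 tested fell. Loxl2 was at 53.6, 31.8, 37.4 and 47.0 FPKM at PN21 and at 17.5, 13.1, 18.7 and 7.60 FPKM at PN98 (−1.56 ± 0.30 SE, limma adjusted p = 0.0246), and Loxl1 was between 29.0 and 50.04 FPKM at PN21 and between 9.16 and 22.5 FPKM at PN98 (−1.35 ± 0.30 SE, limma adjusted p = 0.0435). Lox itself, which is added here after its values were seen, was at 14.9, 8.85, 15.4 and 11.96 FPKM at PN21 and at 35.3, 30.5, 33.0 and 16.5 FPKM at PN98. Every PN98 mouse was above every PN21 mouse, with a log2 fold change of 1.09 ± 0.28 (SE) that missed the threshold (limma adjusted p = 0.06). Of the 7 receptor genes tested none was called, and Itgb1, the shared chain of the collagen-binding integrins, differed by −0.08 ± 0.21 (SE), which turned to 0.15 and 0.18 with the 2 scalings. Without both m106 and m125, limma called 0 of the maturation and receptor genes lower, with 11 lower at an unadjusted p under 0.05. The share of all genes at this unadjusted p is not given for this fit. Without m106 alone limma called 2. Both fits also called a smaller share of all genes lower than the main fit, so the loss of calls is not specific to these genes. Among 16 alternatives the call was lost in 12 for P3h3, in 11 each for Plod2 and Loxl1, in 8 for Pcolce, in 6 for Fkbp10, in 5 for Loxl2, in 3 for Adamts14 and in 1 each for P4ha2 and P3h4.

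**Figure D5:**
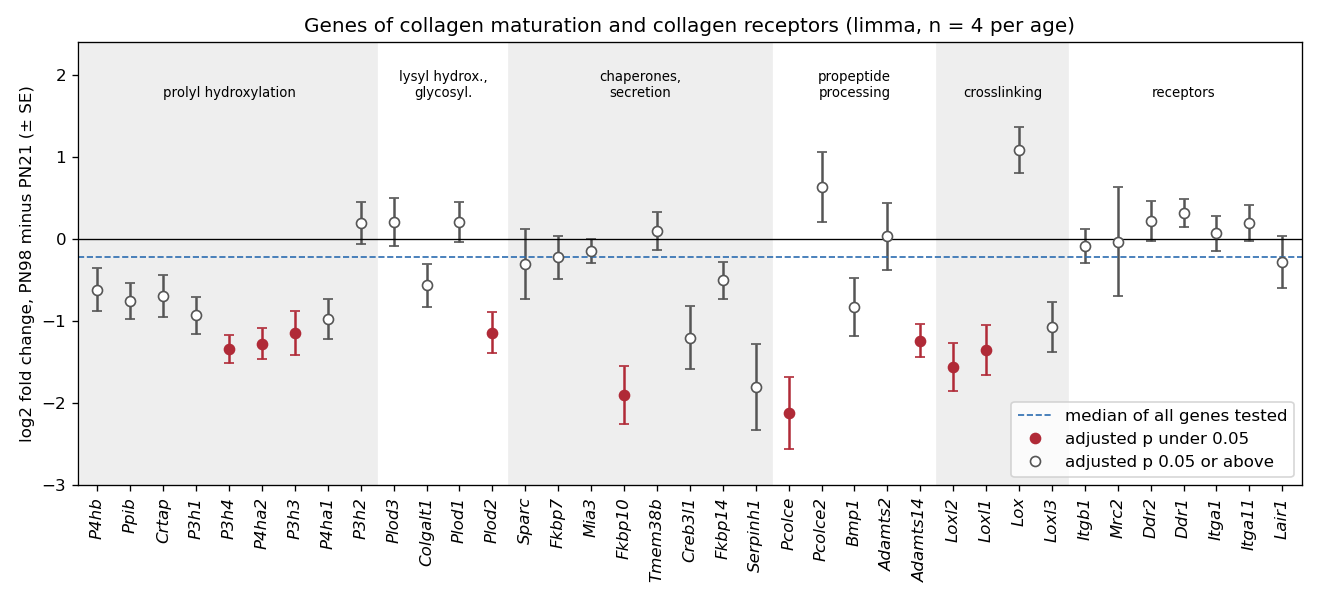
Log2 fold change of 37 genes of collagen maturation and collagen receptors between the ages (y axis, PN98 minus PN21, bars ± SE from limma, n = 4 per age) by gene and step (x axis). The 9 filled red points have an adjusted p under 0.05 and lie below 0, Lox lies highest at 1.09, and the receptors lie around 0.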

How the data were processed

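RNA of ING WAT of 4 mice at PN21 and 4 at PN98 had been sequenced (poly(A)+, paired end). Per the labels and the study's methods, the authors mapped reads to mm10 with STAR 2.3.0, quantified with Cufflinks 2.1.1 and a Gencode annotation, and for each transcript deposited FPKM in each mouse. Many deposited values had lost their decimal mark. Marks were restored from the row's deposited standard deviation, average and score. Of 40426 affected transcripts, 169 could not be settled and none of these is a collagen. The 5010 transcripts that also stand in the authors' table with intact decimals were equal in all mice (relative tolerance 1e-05). That table also lists the authors' fold changes and p-values, which were not used. A further 2 value columns of no sample used here entered only this restoration.

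FPKM was summed over the transcripts that GENCODE vM21 assigns to a gene. Sums were tested with limma 3.58.1 (R 4.3.3) on log2(FPKM + 1) for genes with a mean of at least 1 FPKM, transcripts on log2(FPKM) with the study's filter, both with Benjamini-Hochberg adjustment over all features and a call at 0.05. The mice are separate animals, so p-values measure the spread between animals. Tests were checked on simulated data. For limma the simulated noise was independent between genes, and changes were placed only in genes of below-median spread. This check therefore does not cover genes with a larger spread between mice. The members, gene lists and tests were chosen with earlier results of these data known. Named were the called collagens, those with an absolute log2 fold change of at least 1, the 3 most abundant of each class, called maturation genes, the most abundant of each step, called transcripts and leading transcripts that opposed their gene's sum. The result of 1 marker list is not reported here.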

Additional observations from a re-analysis of the deposited data

Results flagged for a closer look

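In groups of 4 mice, a value was marked when its gap to the nearest other mouse exceeded Dixon's 95% critical share of the group's range, which chance gives in about 1 of 20 groups. Of 96 groups looked at, 8 were marked, and the first 6 below concern m1 at PN21. Col6a1 was at 322 FPKM and Col6a2 at 317 FPKM in m1, against 160.3 to 170.4 and 155 to 174 FPKM in the other PN21 mice. Col18a1 was at 34.9 FPKM in m1, against 18.2 to 18.8 FPKM. The propeptide protease gene Adamts14 was at 3.99 FPKM in m1, against 2.24 to 2.36 FPKM. Col14a1 was listed at 0 FPKM in m1, against 39.5 to 65.7 FPKM, and with it the FACIT share of collagen FPKM was 0.442% in m1, against 1.74% to 1.94%. Among the PN98 mice, m35 had a Col5a1 to Col5a2 ratio of 0.785, against 0.970 to 1.01, and m125 had a basement membrane share of 28.4%, against 22.9% to 23.8%. The cause was not tested in any of these.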

How the results depend on the processing

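Col1a1, Col1a2, Col3a1 and Col27a1 kept their direction in every alternative run, but the number of calls did not hold. Against 6 collagens called lower, array weights called 15 and leaving out 1 mouse at a time called 2 to 11. The count was 2 without m1, m106, m138 or m145 and 11 without m35. Leaving out m106 and m125 together, chosen after seeing the data, called 0. Calls over all genes moved too, from 493 lower of 15947 in the main fit to 3547 with array weights. They were 2895 of 15838 without m35 and 113 of 15991 without m106, and also fewer than 493 without both m106 and m125. Whether the counts of collagens, or of the maturation genes given next, moved more than those of all genes was not tested. Against 9 maturation genes called lower, array weights called 20, leading transcripts 5, leaving out 1 mouse 2 to 15 and leaving out both mice 0. Against 0 called higher, median of ratios scaling, nuclear scaling and array weights each called 1, and leaving out 1 mouse 0 to 1. Against 3 collagen transcripts called lower, a pseudocount of 1 FPKM called 5 and no minimum of the mean 1. A mean above 2 at both ages called 0, nuclear scaling 0 and array weights 8. Leaving out 1 mouse called 0 to 6 and leaving out both 0, while leaving out 1 mouse called 0 to 1 higher. The shares of all transcripts called in these runs are not given, so the transcript counts do not set collagens apart. The chain ratios past the threshold, 0 of 8, became 0 to 5 with 1 mouse left out, where passing takes at least 5 ratios at the smallest p.

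Single estimates that changed sign had missed the threshold, and are given on the log2 scale. Without both m106 and m125 the basement membrane sum turned to 0.29 and the beaded filament sum shrank to −0.67, while Col13a1 turned to 0.032, Col15a1 to 0.10, Col16a1 to 0.16, Col28a1 to 0.30, Col4a1 to 0.27, Col4a2 to 0.32, Itgb1 to 0.16, Sparc to 0.42, the leading Col18a1 transcript to 0.24 and the ratio of Col4a1 to Col4a2 to −0.0479. With median of ratios and nuclear scaling, Col13a1 turned to 0.0469 and 0.0492 and Itgb1 to 0.15 and 0.18. With leading transcripts Col18a1 turned to −0.27 and the ratio of Col6a1 to Col6a2 to 0.12, and with array weights Plod3 turned to −0.0385. With 1 mouse left out, Col13a1 ranged from −0.27 to 0.0394, Col23a1 from −0.0663 to 0.36, Col28a1 from −0.38 to 0.0352, Col8a1 from −0.0288 to 0.29, Itgb1 from −0.18 to 0.0896, Sparc from −0.58 to 0.077 and the ratio of Col6a1 to Col6a2 from −0.10 to 0.0287. The cause was not tested. No paired analysis was possible because the labels name mice and give the ages no shared replicate numbers. Diet, sex and litter are not given in the labels and the depth is unknown, so that no counting error can be set beside the low collagens.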

Other observations

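The mice kept their order over much of the family. Of the 26 collagens tested, m125 was the lowest of all 8 mice in 19 and m1 the highest in 15. Among the PN21 mice, m49 was the lowest in 16, and among the PN98 mice, m114 was the highest in 13 and m35 in 12. The genes share their libraries, so that these counts describe the libraries and not independent events.

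Outside the comparison of the ages, low transcripts of 2 collagens showed estimates that jumped between near 0 and a clear value within an age. The Col4a1 transcript ENSMUST00000130488 was at 12.8 FPKM in m1 and below 0.001 FPKM in the other PN21 mice, and between 4.48 and 13.9 FPKM at PN98. The Col6a1 transcript ENSMUST00000137599 was at 43.4 FPKM in m1 and at most at 0.540 FPKM in every other mouse.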
